A study of Mus musculus with 2 samples.

Results

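The genes described here encode the intermediate filament proteins of neural cells: Gfap, Vim, Nes, Synm, Nefl, Nefm, Nefh, Ina, Prph and Des. They were chosen by name, as the probes on both arrays that are no control spots and carry one of these gene names, which gave 18 probes for 10 genes among 37006 genes named on the array. Total RNA of 2 mouse cell samples was measured, 1 labelled neurosphere and 1 labelled VZ/SVZ (the ventricular and subventricular zone, the germinal layer beside the lateral ventricles), each on 1 one-colour Agilent array. Both samples came from brain of C57BL/6 mice aged 6 months with the genotype Ecrg4hetero beta-gal positive, so no sample of another Ecrg4 genotype serves as a control. Per the labels, the cells of both were cultured in DMEM/F12 with bFGF, EGF and heparin, so the VZ/SVZ sample is not described as uncultured tissue. The labels give neither the number of animals nor how beta-galactosidase positive cells were obtained.

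Intermediate filaments are rope-like polymers whose subunits depend on cell type. Vimentin and nestin are the filament proteins of neural stem and progenitor cells, GFAP joins them in astrocytes and in astrocyte-like stem cells of the adult subventricular zone, and synemin copolymerises with them. Neurons assemble neurofilaments from light, medium and heavy chains with alpha-internexin, and with peripherin mostly in peripheral neurons, whereas desmin is the filament protein of muscle and of many mural cells of vessels.

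Each group had 1 array, so no difference has a replicate check and none was tested. Signals are background-subtracted intensities. A difference is the log2 level in VZ/SVZ minus that in the neurosphere, after each array was scaled to the 75th percentile of its own log2 probe signals, and the scaling lowered every difference by 0.09. The value after ± is the technical error of that difference from the scanner software's error model, and it holds no biological spread. Its median was 0.21 over probes above background on both arrays. Where a probe was not well above background on 1 array, the difference is a bound against the lowest signal among probes well above background there, 5.20 in the neurosphere and 5.93 in VZ/SVZ, or against the dim probe's own signal where that was higher. A fold against that lowest signal is written as at least N-fold, and a fold against the dim probe's own signal is a ratio and no minimum. A gene was called toward a sample where its difference or bound was 2-fold or more in favour of that sample.

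The VZ/SVZ sample had higher signal for the light and medium neurofilament genes and, just past a 2-fold difference, for Des. The Des bound of 1.03 was smaller than its technical error of 1.47. The neurosphere had higher signal for Nes. Of the 10 genes, 9 had a probe well above background on at least 1 array, and 3 of these were called toward VZ/SVZ, against 18.7% of the 26434 genes measured. Toward the neurosphere 1 of the 9 was called, against 11.1% of all genes. With quantile normalization in place of the scaling, these 2-fold background shares became 14.8% and 13.7%. In either direction 4 of the 9 were called, against 29.7% of all genes. The shares of 18.7% and 11.1% are the background for every class and list count below. At 4-fold, Nefl and Nefm were higher in VZ/SVZ, 2 of the 9 against 6.51% of all genes, and no member in the neurosphere, against 2.36%. The other 5 measured members lay within 2-fold, and Nefh was dim on both arrays, that is, not well above background. The median difference of the 9 was 0.45, against 0.04 over all genes. This median of the 9 is the bound of Prph, whose signals were close to background and which has no settled direction. All 3 genes called toward VZ/SVZ were dim in the neurosphere, so their differences are bounds. Among the 3234 genes dim in the neurosphere and above background in VZ/SVZ, 54.8% were called.

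**Figure D1:**
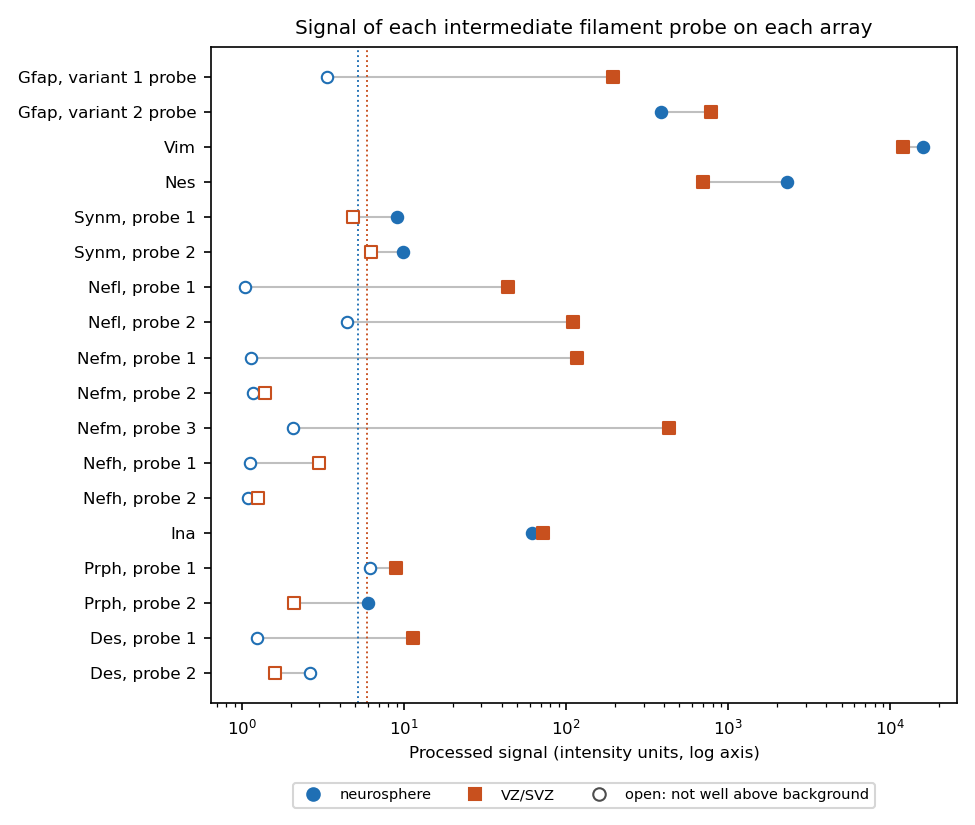
Processed signal (intensity units, log axis) of each of the 18 probes on the neurosphere array (circles) and the VZ/SVZ array (squares), 1 array each, with open symbols for probes not well above background and dotted lines at the lowest signal above background on each array. The Nefl probes and the brighter Nefm probes run from open circles at or under 4.48 to filled squares between 43.8 and 432, while Vim and Nes have the higher neurosphere circles.

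Of the 18 probes, 4 were well above background on both arrays, 7 were dim in the neurosphere, 3 were dim in VZ/SVZ and 4 were dim on both. The 4 genes measured on both arrays were Gfap, Vim, Nes and Ina, and their differences ran from -1.81 to 0.92. By structural class, 1 of the 4 type III genes (Vim, Gfap, Des and Prph) was called toward VZ/SVZ and none toward the neurosphere. Of the 6 type IV genes 5 were measured, with 2 called toward VZ/SVZ and 1 toward the neurosphere. Of all genes, 18.7% were called toward VZ/SVZ and 11.1% toward the neurosphere.

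**Figure D2:**
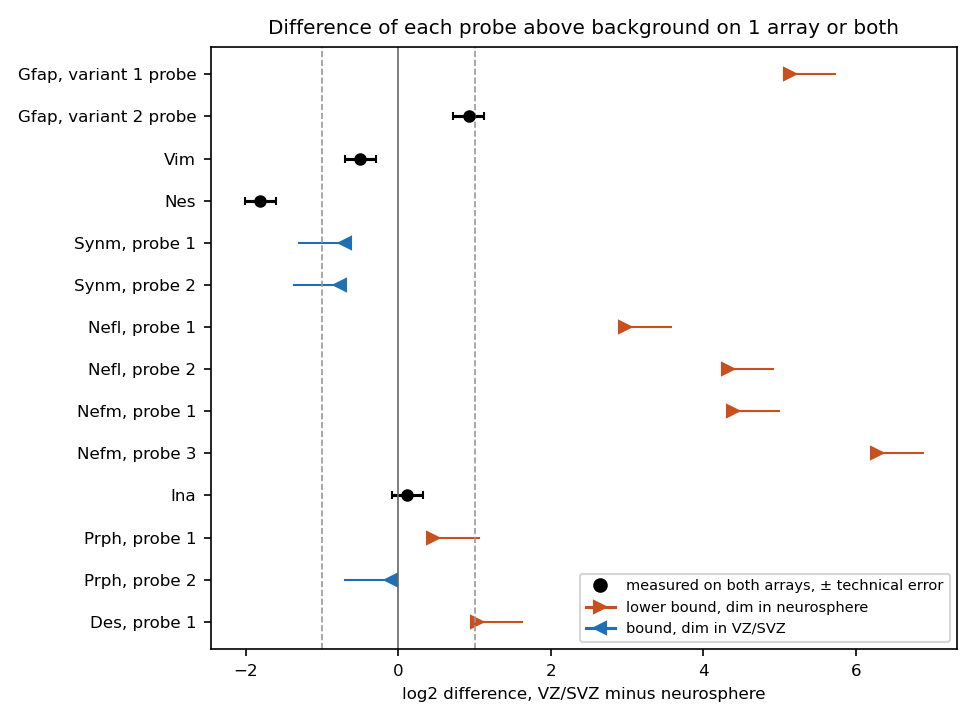
Log2 difference, VZ/SVZ minus neurosphere, of each probe that was well above background on at least 1 array, with technical errors for probes measured on both arrays and triangles for bounds, whose lines only show the open direction and have a fixed length; dashed lines mark a 2-fold difference. Nefl, Nefm and the Gfap variant 1 probe lie to the right between 2.98 and 6.28, and Nes lies to the left at -1.81.

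Nes, which encodes the nestin chain of neural stem and progenitor cells, was the member with the lowest difference. Its probe (mm9 chr3:87784308-87784367, plus strand) gave a signal of 2294 in the neurosphere and 698 in VZ/SVZ. Nes was thus 3.51-fold higher in the neurosphere (log2 difference -1.81 ± 0.20), and 3.15% of all genes had a difference as low. Nes was at least 2-fold apart in all 9 settings of the processing in which it could be computed, between -1.83 and -1.54. Fewer cells that express a gene and less of its RNA per cell cannot be told apart in these bulk samples. Of 4 transcription factors known to act on the Nes enhancer, 3 were called toward the neurosphere, against 11.1% of all genes. Their median difference was -1.69. The POU factor gene Pou3f1 had signals of 1895 and 31.5 (64.3-fold). The SOX genes Sox11 and Sox2 had differences of -2.09 ± 0.20 and -1.28 ± 0.20. Pou3f2 lay within 2-fold at -0.59 ± 0.20. The part of these factors in the Nes difference was not tested.

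Of the markers of neural stem and progenitor cells, 3 of 8 were called toward the neurosphere (Egfr, Sox2 and Fabp7, the brain fatty acid binding protein) and 1 toward VZ/SVZ (Prom1, at 1.03 ± 0.21). Other Egfr probes lay between -1.48 and 0.46. Their summed signal was 45722 in the neurosphere and 23190 in VZ/SVZ, most of it Fabp7, and all 8 were measured. Their part in the Nes difference was not tested.

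Vim, the vimentin gene, had a probe at mm9 chr2:13504232-13504291 on the plus strand. Its signal was 15909 in the neurosphere and 11999 in VZ/SVZ, which is 1.42-fold higher in the neurosphere (-0.50 ± 0.20). Vim therefore lay within 2-fold, and so it did in all 9 settings, between -0.52 and -0.48.

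Gfap encodes glial fibrillary acidic protein, the filament protein of astrocytes. Its value rests on the probe annotated to transcript variant 2 (mm9 chr11:102748864-102748923, minus strand), with signals of 385 and 778. By this probe Gfap was 1.89-fold higher in VZ/SVZ (0.92 ± 0.20), within 2-fold, and 20.5% of all genes had a higher difference. The probe annotated to transcript variant 1 (chr11:102751813-102751872) lies 2949 bases away, nearer the 5′ end of the gene. It was dim in the neurosphere at 3.37 and gave 195 in VZ/SVZ, at least 35.1-fold higher there.

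Both Gfap probes were thus higher in VZ/SVZ. Under the processing used here, the bound of the variant 1 probe lay 4.21 above the difference of the variant 2 probe on the log2 scale. With bounds taken at their value, 0.852% of 8573 genes with at least 2 measured probes had a range between probes as large, and the median range was 0.74. The size of the Gfap difference therefore depends on the probe. It was 3.03 as the median over both probes and 1.13 with quantile normalization, both past 2-fold. The variant 1 probe itself fell to 2.0 with the normexp background correction, where Gfap by its variant 2 probe lay at 0.87, so the gap was smaller there. The annotation of the probes to variants comes from the accession in the scanner files, and no exon map of the mm9 build was used.

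Astrocyte markers did not share 1 direction: of 10 listed, 9 were measured, with 3 called toward VZ/SVZ and 4 toward the neurosphere. Aldh1l1, a folate enzyme of astrocytes, had signals of 64.8 and 1592 (4.52 ± 0.21). The glutamate transporter gene Slc1a3 had signals of 3837 and 274 (-3.90 ± 0.20), although its other probes lay between -0.25 and 0.74. For Agt, the angiotensinogen gene, the neurosphere exceeded VZ/SVZ 17.5-fold against a dim 6.78 there, and Gjb6 was not above background. The summed signal of the list was 8627 in the neurosphere and 6904 in VZ/SVZ, and that Slc1a3 probe gave the largest part of the neurosphere sum. The part of the astrocyte markers in the Gfap difference was not tested.

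Of 6 transcription factors known to act on the Gfap gene, none was called toward VZ/SVZ and 1, Nfib, toward the neurosphere (signals of 3559 and 1353, -1.49 ± 0.20). Nfia, Smad1 and Sox9 had differences of -0.94, -0.86 and -0.77, and Stat3, the mediator of cytokine signalling to this gene, -0.42. The median of the 6 was -0.82. Other probes lay between -1.32 and 0.79 for Nfia and between -0.91 and 0.56 for Stat3. Those of the remaining factors lay below 0. The part of these factors in the Gfap difference was not tested. Of 8 genes of reactive glia, 2 were called toward each sample: Osmr and Timp1 in VZ/SVZ (1.07 and 1.02), and Cxcl10 and Steap4 in the neurosphere (-2.47, and at least 2.71-fold).

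Synm encodes synemin, a large filament protein that joins vimentin or desmin filaments. The gene's value rests on its probe for transcript variant 3, printed because it gave the higher neurosphere signal.
Synm, mm9 chr7:74903754-74903813, minus strand: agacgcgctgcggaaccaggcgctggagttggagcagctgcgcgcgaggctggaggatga
This probe, the deposited 60-base sequence read 5′ to 3′, had a signal of 9.90 in the neurosphere and 6.23, not well above background, in VZ/SVZ. The neurosphere was 1.70-fold higher by this probe, a ratio to its own dim signal with a technical error of 0.41 on the log2 scale. The probe for variant 1 (chr7:74877634-74877693) gave 9.02 and a dim 4.84, at least 1.62-fold. Both pointed the same way at signals close to background, and the difference was -1.31 with quantile normalization, past 2-fold.

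The neurofilament light and medium chains are the core of the axonal neurofilament, and their genes lie next to each other with no annotated protein-coding gene between them. Nefm and Nefl had the highest bounds of the members, and bounds do not order the differences behind them. The Nefm probe inside the coding sequence is printed to show which part of the transcript was measured. Like the other probes printed here, it is the deposited 60-base sequence, read 5′ to 3′.
Nefm, mm9 chr14:68738193-68738252, minus strand: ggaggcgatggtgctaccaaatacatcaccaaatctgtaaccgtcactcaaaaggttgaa

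This Nefm probe gave 1.14 in the neurosphere, not well above background, and 117 in VZ/SVZ, at least 21.0-fold higher. A Nefm probe nearer the 3′ end (chr14:68737598-68737657) was brighter, at a dim 2.05 and at 432, at least 77.9-fold higher in VZ/SVZ. The remaining Nefm probe (chr14:68737367-68737426), 231 bases farther 3′, gave 1.17 and 1.39 and was not above background on either array. So 2 of 3 Nefm probes showed the difference, and the most 3′ probe gave no measurement. With bounds taken at their value, 0.182% of all genes had a higher difference or bound than the bound of 6.28 of Nefm.

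Nefl, the light chain that the other chains need to form filaments, had a probe at mm9 chr14:68705725-68705784 on the plus strand. Its signal was 4.48 in the neurosphere, not well above background, and 111 in VZ/SVZ, at least 19.96-fold higher. Its other probe, 1141 bases farther 3′ (chr14:68706866-68706925), gave 1.04 and 43.8, at least 7.89-fold. Both probes thus had the same direction, and 0.972% of all genes had a higher difference or bound than the bound of 4.32 of Nefl. With the normexp correction, which adds an offset of 50 to all signals, the differences of Nefl and Nefm were 1.31 and 2.97. Both genes were past 2-fold in all 8 settings that gave them a value.

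Genes around this pair were read from the order of genes in a later mouse assembly (GRCm38.p6), used for neighbours only. On the Nefl side, Dock5, Gnrh1 and Kctd9 had differences of 3.54, -0.86 and -0.25. On the Nefm side, Adamdec1 and Adam28 were dim in the neurosphere. Adamdec1 was 2.39-fold higher in VZ/SVZ against its own dim 5.49, and Adam28 at least 2.27-fold higher. Adam7 had no measured difference. Dock5 went from 8.66 to 108, so the higher VZ/SVZ signal was not limited to the pair of neurofilament genes, nor shared by all neighbours.

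Nefh, the heavy chain of mature, large-calibre axons, was dim on both arrays. Its probes gave 1.13 and 1.09 in the neurosphere and 2.97 and 1.25 in VZ/SVZ (mm9 chr11:4838918-4838977 and chr11:4838758-4838817, minus strand). Ina encodes alpha-internexin, which precedes the other chains in developing neurons. Its probe (chr19:47098781-47098840, plus strand) gave 61.7 and 71.5, within 2-fold and within its technical error (0.12 ± 0.21). The neurofilament genes thus did not share 1 pattern by the detection call used here. Nefl and Nefm were above background in VZ/SVZ only, Ina was measured on both arrays, and Nefh on neither. With a laxer detection call (positive and significant) all 10 members were measured. Then 4 were called toward VZ/SVZ, Nefh with Nefl, Nefm and Des, against 23.0% of all genes.

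Prph encodes peripherin, and its probes, printed here because they disagreed, lie at different places in the coding sequence; capitals mark the stop codon in the probe at its end.
Prph, mm9 chr15:98887297-98887356, plus strand: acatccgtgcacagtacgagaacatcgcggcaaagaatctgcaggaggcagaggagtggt
Prph, mm9 chr15:98889042-98889101, plus strand: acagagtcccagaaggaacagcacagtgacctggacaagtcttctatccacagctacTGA
The inner probe gave a dim 6.13 in the neurosphere and 8.97 in VZ/SVZ, 1.37-fold higher there against its own dim signal, with a technical error of 0.44. The probe over the stop codon gave 5.96 in the neurosphere and a dim 2.10 in VZ/SVZ, at least 1.07-fold higher in the neurosphere. All of these signals were close to background, and the gene's difference of 0.45 turned to -0.12 with quantile normalization and -0.07 with normexp, so no direction can be given for Prph. Of the 6 measured markers of peripheral and sensory neurons, Pou4f1 and Th were called toward VZ/SVZ (1.55 and 1.02), each with another probe below 0, and none toward the neurosphere. Isl1 was not above background.

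The neuron markers, as a list, were mixed. Of 10, 9 were measured, with 5 called toward VZ/SVZ and 2 toward the neurosphere, against 18.7% and 11.1% of all genes. Their signals summed to 11203 (neurosphere) and 7161 (VZ/SVZ). The largest parts of the neurosphere sum were Snap25 (signals of 5391 and 5421) and Map2. Calls toward VZ/SVZ numbered 3 with quantile normalization and 2 with normexp, the latter no higher than the 2 toward the neurosphere. Thy1, a surface glycoprotein that fibroblasts also express, had signals of 9.94 and 514 (5.60 ± 0.25). The neuronal tubulin gene Tubb3 had 61.5 and 244 (1.90 ± 0.21). Map2, of dendritic microtubules, went the other way with 4806 and 505 (-3.35 ± 0.20), as did Gap43 of growth cones (-1.80 ± 0.20). The nuclear marker Rbfox3 was not well above background on either array, and Stmn2 was close to it, at a dim 1.16 and at 8.37. The part of these markers in the Nefl and Nefm differences was not tested.

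Des encodes desmin. The probe that measured it covers the end of the coding sequence, with its stop codon in capitals.
Des, mm9 chr1:75363404-75363629, plus strand: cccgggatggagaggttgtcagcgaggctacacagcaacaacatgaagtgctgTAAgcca
This probe reached 11.3 in VZ/SVZ and was dim at 1.24 in the neurosphere, at least 2.04-fold higher in VZ/SVZ. The coordinates span 226 bases of mm9 for a 60-base probe. The difference of 1.03 sits at the threshold and is smaller than its technical error of 1.47. It fell to 0.47 with quantile normalization and 0.10 with normexp. The other Des probe (chr1:75358447-75358506) gave 2.64 and 1.60 and was not above background on either array.

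Of 9 markers of smooth muscle and mural cells, in which desmin is found, 6 were called toward VZ/SVZ, against 18.7% of all genes. None was called toward the neurosphere, against 11.1%, and the median of the 9 was 2.20. Pdgfrb, the growth factor receptor of pericytes, was at least 176-fold higher and Kcnj8, a pericyte potassium channel, at least 68.8-fold higher. Rgs5, Cnn1 and Tagln had differences of 4.18, 2.36 and 2.20, with another Cnn1 probe at 0.40. Acta2 lay at -0.33 ± 0.20 by its brightest probe and between 3.33 and 4.31 by its other probes. The summed signal of the list was 7292 in the neurosphere and 8626 in VZ/SVZ, most of it from that Acta2 probe. Of 8 markers of striated muscle, 3 of 6 measured were called toward VZ/SVZ (Actc1 at 2.60, Tnnt2 at least 3.95-fold with another probe at -0.59, Acta1 at 1.01), a count that fell to 0 with normexp, and Ckm and Actn2 were not above background. Of 5 factors known to act on the Des gene, Myod1 was higher in VZ/SVZ (1.38), Mef2c in the neurosphere (-1.20) and Srf in neither (-0.05), while Myocd and Myf5 were not above background.

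Fibroblast markers had the largest list difference: all 6 were called toward VZ/SVZ, and their median was 8.02. They had a summed signal of 42.5 in the neurosphere and 10929 in VZ/SVZ. Col3a1, a fibrillar collagen gene, was at least 526-fold higher by its brightest probe, with another at 0.91, and Dcn, the decorin gene, at least 413-fold. Endothelial markers were higher for 4 of 6, led by Cdh5 at least 72.9-fold, with Flt1 higher in the neurosphere (-3.13, other probes -1.64 and -0.77). Of 5 ependymal markers, 3 were called toward the neurosphere and none toward VZ/SVZ. Markers of oligodendrocytes (2 of 6, Olig2 and Cnp, the latter with another probe at -0.10) and of Schwann cells (1 of 4 measured, S100b) had calls toward the neurosphere and none toward VZ/SVZ. By their brightest probes, none of 3 measured markers of microglia was 2-fold apart. Another probe lay at 1.31 for Ptprc and at 0.90 for Csf1r. Cx3cr1, P2ry12, C1qa and Tyrobp were not above background. The part of these cell types in the differences of the members, Vim among them, was not tested.

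**Figure D3:**
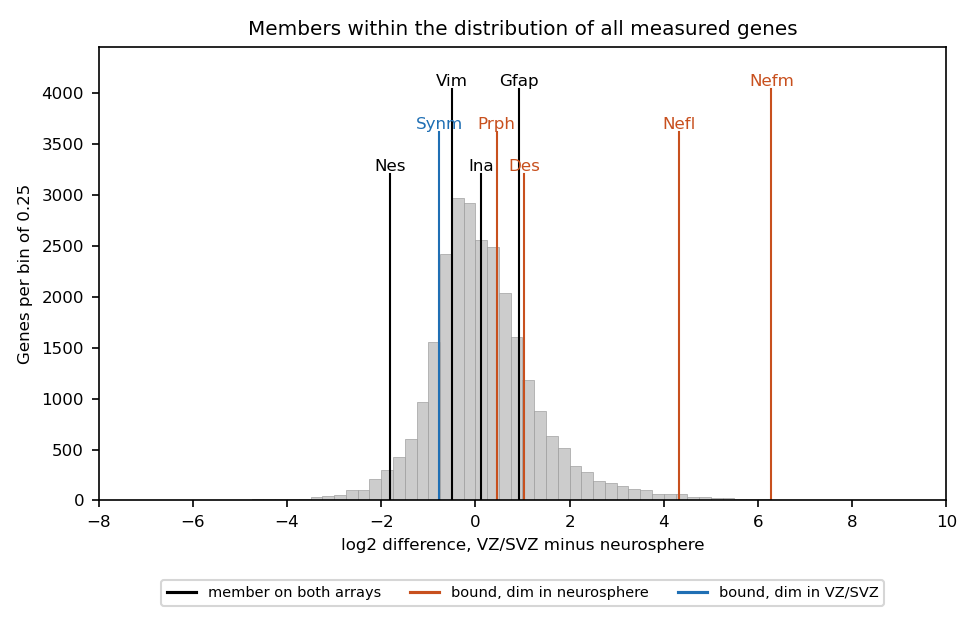
Histogram of the log2 difference, VZ/SVZ minus neurosphere, of all 26434 genes measured (bins of 0.25), with a vertical line at each of the 9 measured members; coloured lines are bounds. Nefl at 4.32 and Nefm at 6.28 stand in the right tail, Nes at -1.81 on the left, and the other 6 between -0.76 and 1.03.

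Of the other intermediate filament genes, 15 of 19 listed were measured (median 0.61). Among these 15, 4 were called toward VZ/SVZ and 1 toward the neurosphere, against 18.7% and 11.1% of all genes. The pair of simple epithelial keratins that polymerise with each other led the list: Krt18 went from a dim 4.12 to 217, at least 39.2-fold, and Krt8 from a dim 1.05 to 45.9, at least 8.27-fold. The nuclear lamin genes had opposite differences, 1.12 ± 0.06 for Lmna (signals of 311 and 721) and -2.29 ± 0.20 for Lmnb1 (400 and 87.5). Iffo2 lay at 1.06 ± 0.20, with another probe at 0.73, and Krt1, Krt15, Krt19 and Krt20 were not above background.

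Partners of the filaments were counted by role, beside 18.7% of all genes called toward VZ/SVZ and 11.1% toward the neurosphere. Of the cytolinkers, which tie filaments to other structures, 2 of 5 measured were called toward VZ/SVZ: Evpl (1.53 ± 0.25) and Plec, the plectin gene (1.20 ± 0.20), with Dsp and Eppk1 not above background. Of 8 chaperones and turnover factors, 4 were called toward VZ/SVZ and none toward the neurosphere, and the median was 0.84. The co-chaperone gene Bag3 had signals of 6.59 and 2323 (330-fold, 8.37 ± 0.32). The small heat shock protein genes Hspb1 and Hspb8, partners of filaments and of Bag3, had 7.54 and 344 (5.42 ± 0.30) and 32.8 and 469 (3.74 ± 0.21). Trim2, a ubiquitin ligase that acts on the light neurofilament chain, lay at 1.13 ± 0.20. Cryab lay within 2-fold at 0.54 ± 0.20.

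Of 11 enzymes that modify filament proteins, 2 were called toward each sample, and none toward VZ/SVZ with normexp. Over all genes, 18.7% were called toward VZ/SVZ and 11.1% toward the neurosphere. Cdk1 and Plk1, the mitotic kinases that phosphorylate vimentin, were higher in the neurosphere (-2.18 ± 0.21 and -1.29 ± 0.20). Cdk5r1, the activator of the neurofilament kinase Cdk5, and Pak1 were higher in VZ/SVZ (1.98 ± 0.26 and 1.24 ± 0.20). Of 5 motor genes linked to neurofilament transport, Kif5c was 8.88-fold higher in VZ/SVZ (signals of 182 and 1722). Kif5a was higher in the neurosphere by its brightest probe (-1.45 ± 0.07) and lay at 0.57 by another, so its direction depends on the probe.

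**Figure D4:**
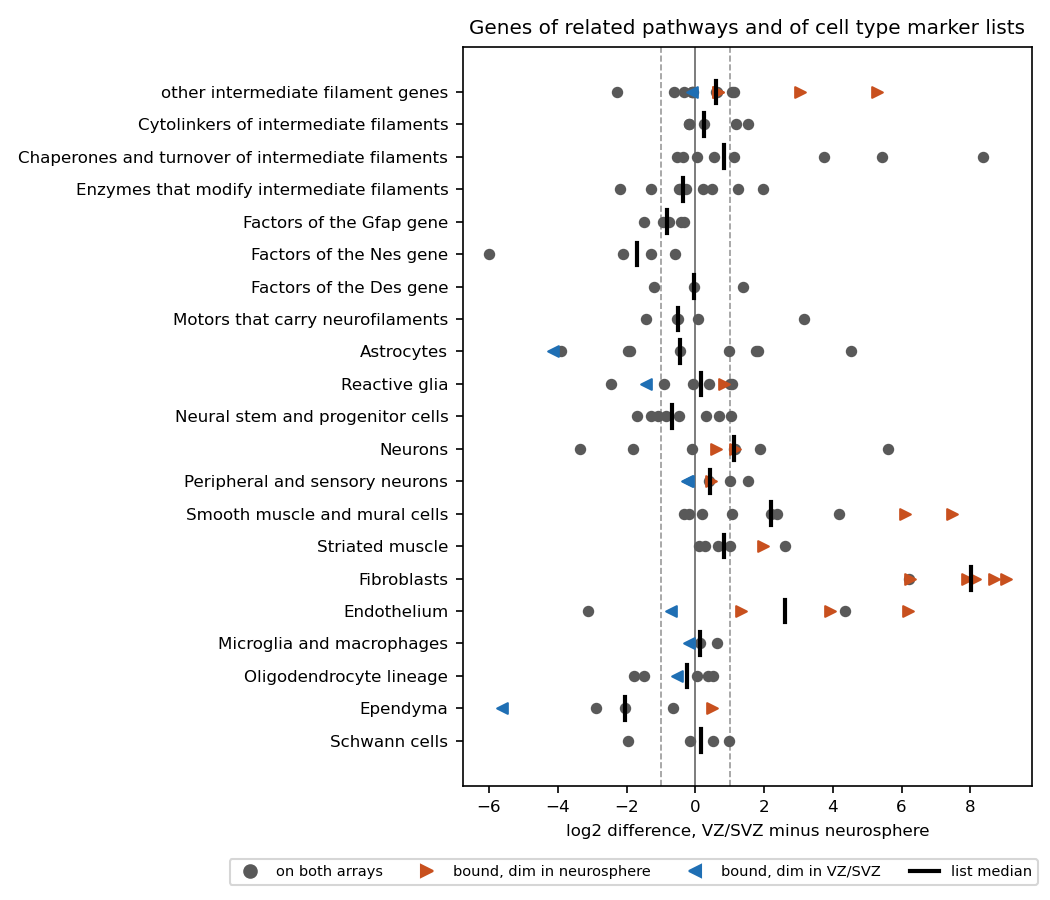
Log2 difference, VZ/SVZ minus neurosphere, of each measured gene of the pathway and cell type lists, 1 row per list, with circles for genes on both arrays, triangles for bounds and a black bar at each list's median; dashed lines mark 2-fold. The fibroblast row lies farthest right with its median at 8.02, the smooth muscle and mural row has its median at 2.20, and the rows of Nes factors and ependyma lie left at -1.69 and -2.04.

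Ecrg4, the gene named in the genotype, gave 351 in the neurosphere and 34.0 in VZ/SVZ (-3.46 ± 0.21). Both samples share 1 genotype, so this value checks no label. Of 56599 probes, 61.2% in the neurosphere and 66.2% in VZ/SVZ were well above background, no spot was saturated, and no member spot was marked as an outlier. Both arrays lay on the same slide and were scanned together.

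**Figure D5:**
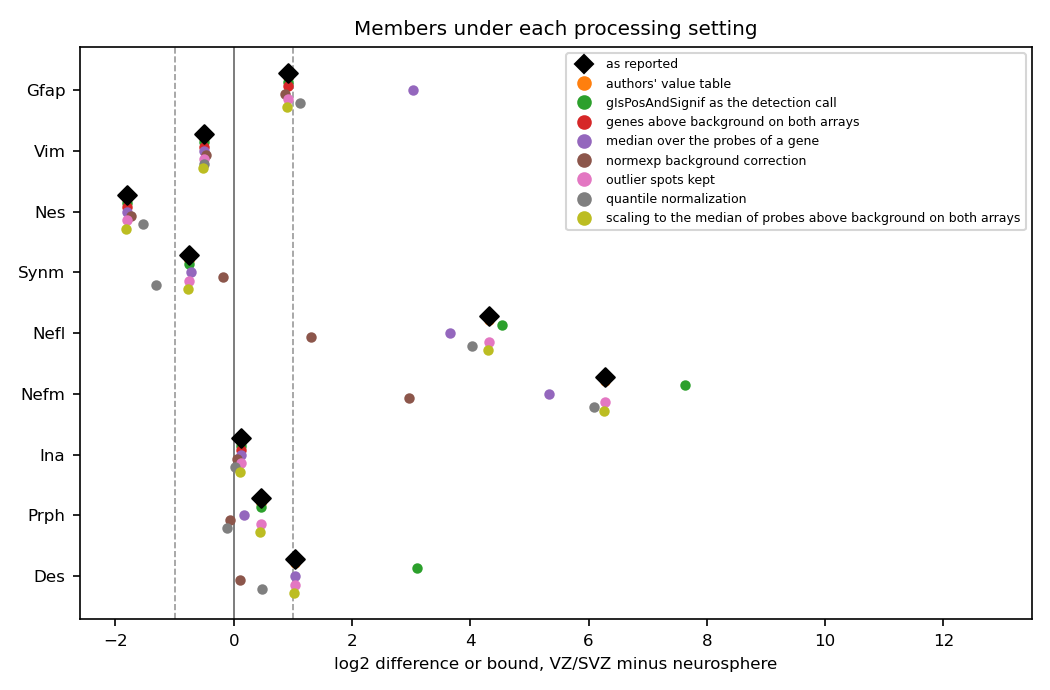
Log2 difference, VZ/SVZ minus neurosphere, of each member under the processing used here and each alternative, with dashed lines at 2-fold. Nes stays left of -1.54 and Nefl and Nefm right of 1.31, while Gfap, Des and Synm have settings on both sides of a dashed line and Prph on both sides of 0.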

How the data were processed

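Cy3-labelled RNA of 2 samples, grouped by title with 1 array each, was measured. The deposited scanner files hold an intensity per spot from Agilent Feature Extraction 11.5.1.1, per the file headers, with background subtracted and no scaling between arrays; the submitters' processing notes name version 9.1. Values in the authors' deposited table matched these (median ratio 1.00). Of 62976 spots, 3671 controls and spots marked as non-uniform or population outliers (79 and 142) were left out. Replicate spots were averaged as log2, and each array's 75th percentile was subtracted. A gene took its brightest probe among those well above background on at least 1 array; a gene dim on 1 array has a bound. Genes were counted at 2-fold, with no test. Dim signals near 5 limit precision.

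The members and lists were chosen with earlier results of these data known. Named were all members with every probe and, per list, up to 4 genes of the largest difference, genes opposing their list by 2-fold, and genes not above background; some list genes are not reported here. A few others (Pou3f2, Sox9, Stat3, Stmn2, Acta2, Cryab, Srf) were added after their values were seen. Names came from RefSeq (GRCm38.p6) by accession (32986 probes), symbol (10226) or synonym (519), else from the files (12868); coordinates are the files' (mm9). Python 3.11.15, pandas 2.3.3 and limma 3.58.1 in R 4.3.3 (normexp, offset 50) were used, tested on simulated data.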

Additional observations from a re-analysis of the deposited data

How the results depend on the processing

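No member called at 2-fold changed sign in 73 recomputed member differences, those of the Gfap variant 1 probe included, though Prph, not called, did. Of the 73, 58 moved by less than the technical error and 15 by more. Many could hardly move: the authors' table matched the scanner values, no member spot was an outlier, and filtering to both arrays changed no member value. The median over probes cannot change a gene with a single measured probe. The fall of Des from 1.03 to 0.10 with normexp counts among the 58, since its technical error was 1.47. The count of 58 is therefore no measure of robustness. Members at least 2-fold higher in VZ/SVZ (3) became 0 when only genes above background on both arrays were kept, since all 3 were dim in the neurosphere. They became 4 with the median over probes, which added Gfap. Members higher in the neurosphere (1) became 0 at 4-fold and 2 with quantile normalization, which added Synm and put Gfap in place of Des among the 3 toward VZ/SVZ. Over all genes, 4934 were called toward VZ/SVZ and 2927 toward the neurosphere at 2-fold; the counts were 1721 and 623 at 4-fold and 1470 and 1268 with normexp. The VZ/SVZ count was 3161 with genes on both arrays only, and 7670 with a laxer detection call (positive and significant), an alternative chosen after the data were seen. That call measured all 10 members and put 4 of them toward VZ/SVZ, with Nefh added. Quantile normalization shifted the median of all genes by -0.14 and took the share of calls that were higher in VZ/SVZ from 62.8% to 51.9%; normexp took it to 53.7%. The causes of these changes were not tested, beyond the smaller number of genes in the stricter filter. Of 336 recomputed list counts, 306 stayed within 1.5 times, 100 of them counts of 0 that stayed 0, and 30 moved. With normexp, counts toward VZ/SVZ fell to 0 for striated muscle (from 3), reactive glia, enzymes and peripheral neurons (from 2 each) and stem cell markers (from 1), to 1 for cytolinkers (from 2), and to 2 for neurons (from 5) and other filament genes (from 4). Toward the neurosphere they fell to 0 for Des factors, motors and Schwann cells (from 1 each) and to 1 for enzymes and reactive glia (from 2 each). With genes on both arrays only, fibroblasts fell from 6 to 1, endothelium from 4 to 1 and other filament genes from 4 to 2 toward VZ/SVZ, and reactive glia from 2 to 1 toward the neurosphere. With the median over probes, peripheral neurons fell from 2 to 0 toward VZ/SVZ; toward the neurosphere, oligodendrocytes fell from 2 to 1 and motors from 1 to 0, and enzymes went from 2 to 4. Quantile normalization took neurons from 5 to 3, stem cell markers from 1 to 0 and Schwann cells from 0 to 1 toward VZ/SVZ, and endothelium from 1 to 2 toward the neurosphere. The laxer detection call moved the other 5, all upward. With 1 array per group no replicate could be left out, and signal near background limits Synm, Prph, Des and Nefh.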
